A study of Mus musculus with 15 samples.

Results

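Striatal projection neurons, also called medium spiny neurons, are GABAergic cells that make up most neurons of the striatum, the forebrain nucleus that lies beneath the cortex. The genes described here are 9 that these cells express strongly: Pde10a, Adcy5, Ppp1r1b, Rgs9, Adora2a, Penk, Tac1, Rarb and Lrrc10b. They were taken by gene name, and every listed transcript of a member counted. This gave 16 transcripts of the 10370 in the data, or 9 genes of the 7740 with an annotated name. Pde10a had 4 listed transcripts, Ppp1r1b and Rgs9 had 3 each, and the other 6 genes had 1 each. All 9 members are described below.

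The libraries are of cortical total RNA from male C57BL/6 mice, labelled with an age of 12 weeks. Tissue was taken at 1 month from mice given HF-HI (high-frequency head impact), in which anesthetized mice receive repeated closed-head impacts on consecutive days, or from Sham mice, which are handled and anesthetized alike without impacts. There were 7 Sham and 8 HF-HI libraries. The labels name no genotype, drug or transgene that differs between the groups, and both received the same anesthesia. The reads behind the listed transcripts numbered 5798810 to 10582858 per Sham library and 3496103 to 8666307 per HF-HI library, with size factors of 0.818 to 1.47 and 0.501 to 1.22. These totals cover listed transcripts only. The labels number the samples of a group and do not say whether RNA was pooled, so p-values measure the spread between these samples. Of 12 cortical projection neuron markers 11 were listed, among them Slc17a7, which loads glutamate into vesicles, with a Sham mean of 5141 ± 260 normalized counts (SD, n = 7) and a HF-HI mean of 5303 ± 341 (SD, n = 8), so the defining markers of the labelled tissue were present.

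Striatal projection neurons fall into a direct pathway type, which expresses the dopamine D1 receptor and substance P (from Tac1), and an indirect pathway type, which expresses the dopamine D2 receptor, the adenosine receptor encoded by Adora2a and enkephalin (from Penk). In both types, dopamine and adenosine act on cyclic AMP. Adcy5 makes it, Pde10a degrades it, Ppp1r1b encodes DARPP-32, which inhibits protein phosphatase 1 once protein kinase A has phosphorylated it, and Rgs9 shortens G protein signals. Several of these genes are not confined to the striatum: cortical neurons express Adcy5 and Pde10a at lower levels, and some cortical interneurons express Penk and Tac1.

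The sequences below are 4 stretches of DNA that are described further on. They are a promoter for each of Pde10a, Rarb and Tac1, and a coding exon that separates the main pair of Pde10a transcripts. Promoters run from 250 bases before to 50 after the start of transcription, are taken from RefSeq (GRCm38.p6) and are written 5′ to 3′ on the gene's strand. Capitals mark motif matches, which in Rarb are a retinoic acid response element and in Tac1 are CCAAT (as its complement ATTGG) and TGACG (as its complement CGTCA). Pde10a holds no match in this window.
Pde10a promoter, chr17:8801495-8801794, plus strand: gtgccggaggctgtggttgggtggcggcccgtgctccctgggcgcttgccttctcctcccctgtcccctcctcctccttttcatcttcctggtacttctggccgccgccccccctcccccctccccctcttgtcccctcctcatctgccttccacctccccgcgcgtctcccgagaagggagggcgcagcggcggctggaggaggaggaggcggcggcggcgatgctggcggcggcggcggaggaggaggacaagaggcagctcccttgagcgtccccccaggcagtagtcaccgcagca
Rarb promoter, chr14:16575427-16575726, minus strand: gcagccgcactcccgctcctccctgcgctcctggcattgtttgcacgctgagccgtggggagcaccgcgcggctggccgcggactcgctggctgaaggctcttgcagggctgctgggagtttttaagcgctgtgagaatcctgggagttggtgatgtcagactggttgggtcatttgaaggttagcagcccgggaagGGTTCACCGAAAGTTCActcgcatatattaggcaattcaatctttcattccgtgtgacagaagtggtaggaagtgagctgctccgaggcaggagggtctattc
Tac1 promoter, chr6:7554811-7555110, plus strand: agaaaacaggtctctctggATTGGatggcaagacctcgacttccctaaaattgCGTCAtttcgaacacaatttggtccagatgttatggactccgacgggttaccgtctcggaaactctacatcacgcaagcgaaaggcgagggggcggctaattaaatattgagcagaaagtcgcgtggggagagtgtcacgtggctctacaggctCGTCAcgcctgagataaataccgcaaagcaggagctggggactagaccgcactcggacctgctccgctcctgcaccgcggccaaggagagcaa
Pde10a exon 5, chr17:8930510-8930559, plus strand: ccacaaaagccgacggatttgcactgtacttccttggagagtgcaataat

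Pde10a encodes the dual-specificity phosphodiesterase that is abundant in both types of striatal projection neuron. On mm10 its 4 listed transcripts span chromosome 17 from 8525450 to 8986648 on the plus strand. Summed over them, Sham libraries held 3088 normalized counts (reads divided by the library's size factor) at the lowest, 3586 at the median and 4342 at the highest. HF-HI libraries held 1901 at the lowest, 2770.0 at the median and 3709 at the highest. The groups overlap, but the Sham median was above 7 of 8 HF-HI libraries (as for 11.5% of all genes, counting 7 or more) and the lowest Sham library above 5 (8.45% of all genes, counting 4 or more). The means were 3661 ± 463 in Sham (SD, n = 7) and 2840.1 ± 595 in HF-HI (SD, n = 8), a log2 ratio of −0.37.

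Adcy5, the adenylyl cyclase that supplies most cyclic AMP in these cells, had 2266, 2817 and 3097 normalized counts at the Sham lowest, median and highest, and 1804, 2467 and 3183 in HF-HI. HF-HI replicate 6 stood above every Sham library, while 3 HF-HI libraries stood below them (18.4% of all genes had 3 or more). Its listed transcript runs over chromosome 16 from 35154877 to 35305738. The group means were 2736 ± 321 and 2444 ± 507, a log2 ratio of −0.16.

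Ppp1r1b (chromosome 11, 98348404 to 98357796) had a Sham median of 1152 normalized counts (751 to 1299) and a HF-HI median of 1021 (576 to 1254). Rgs9 (chromosome 11, 109225355 to 109298129) had a Sham median of 662 (412 to 849) and a HF-HI median of 589 (369 to 802). The ranges overlapped for both genes. Ppp1r1b had 3 HF-HI libraries below the lowest Sham library (18.4% of all genes had 3 or more) and Rgs9 had 1 (61.8% had 1 or more). Group means were 1068 ± 201 and 939.7 ± 232 for Ppp1r1b (log2 ratio −0.18), and 651 ± 133 and 585 ± 144 for Rgs9 (log2 ratio −0.16).

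The receptor gene Adora2a (chromosome 10, 75316877 to 75334784) had 171, 337 and 448 normalized counts at the Sham lowest, median and highest, against 174, 266 and 379.9 in HF-HI. Here the lowest library of all was Sham replicate 5, and no HF-HI library lay below it. The means were 334 ± 105 in Sham and 258 ± 74.0 in HF-HI, a log2 ratio of −0.37.

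Of the neuropeptide precursors, Penk (chromosome 4, 4133531 to 4138477) had a Sham median of 933 normalized counts (665 to 1066) and a HF-HI median of 696 (569 to 893). The Sham median exceeded all 8 HF-HI libraries, which held for 3.06% of all genes, and the means were 877 ± 160 and 712 ± 133 (log2 ratio −0.30). Tac1 (chromosome 6, 7554879 to 7562977) had a Sham median of 157 (97.2 to 181) and a HF-HI median of 98.2 (61.9 to 188). It was the member of lowest count, with means of 146 ± 30.5 and 109 ± 44.3 (log2 ratio −0.43). HF-HI replicate 6 held the highest Tac1 value of the 15 libraries. However, 4 other HF-HI libraries lay below the lowest Sham library (8.45% of all genes had 4 or more). In HF-HI replicate 4 the Tac1 value rests on 31 reads, so counting error is large there.

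Rarb, a retinoic acid receptor that takes part in striatal neuron development, is listed by a transcript on chromosome 14 from 16430839 to 16575543, minus strand. Its Sham median was 224 normalized counts (166 to 297) and its HF-HI median 196 (131 to 286). The means were 226 ± 43.4 and 197 ± 46.6, a log2 ratio of −0.20. Of the 3108 bases of its exons, 1793 overlap exons of Top2b on the opposite strand. Whether reads were counted by strand is not given in the sources used here, so some Rarb reads may belong to Top2b. Top2b itself did not follow the members, with r = −0.35 and rho = −0.36 to their mean over 15 libraries.

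Lrrc10b encodes a leucine-rich repeat protein and lies on chromosome 19 from 10455371 to 10457473, a single exon on the minus strand. Its values were 168, 303 and 372 normalized counts at the Sham lowest, median and highest, and 144, 225 and 273 in HF-HI. Here too the Sham median exceeded all 8 HF-HI libraries (3.06% of all genes). Of these libraries 2 fell below the lowest Sham library (34.1% of all genes had 2 or more). The means were 285 ± 63.9 and 214 ± 47.7, a log2 ratio of −0.42.

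Across the 9 genes a regular order of libraries could be seen. Sham replicate 5 was the lowest Sham library for 8 of 9 genes, Penk being lowest in Sham replicate 7. The lowest HF-HI library was replicate 1 or replicate 4 for every gene. The highest HF-HI library was replicate 6 for 8 of 9 genes, and replicate 5 for Penk.

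**Figure D1:**
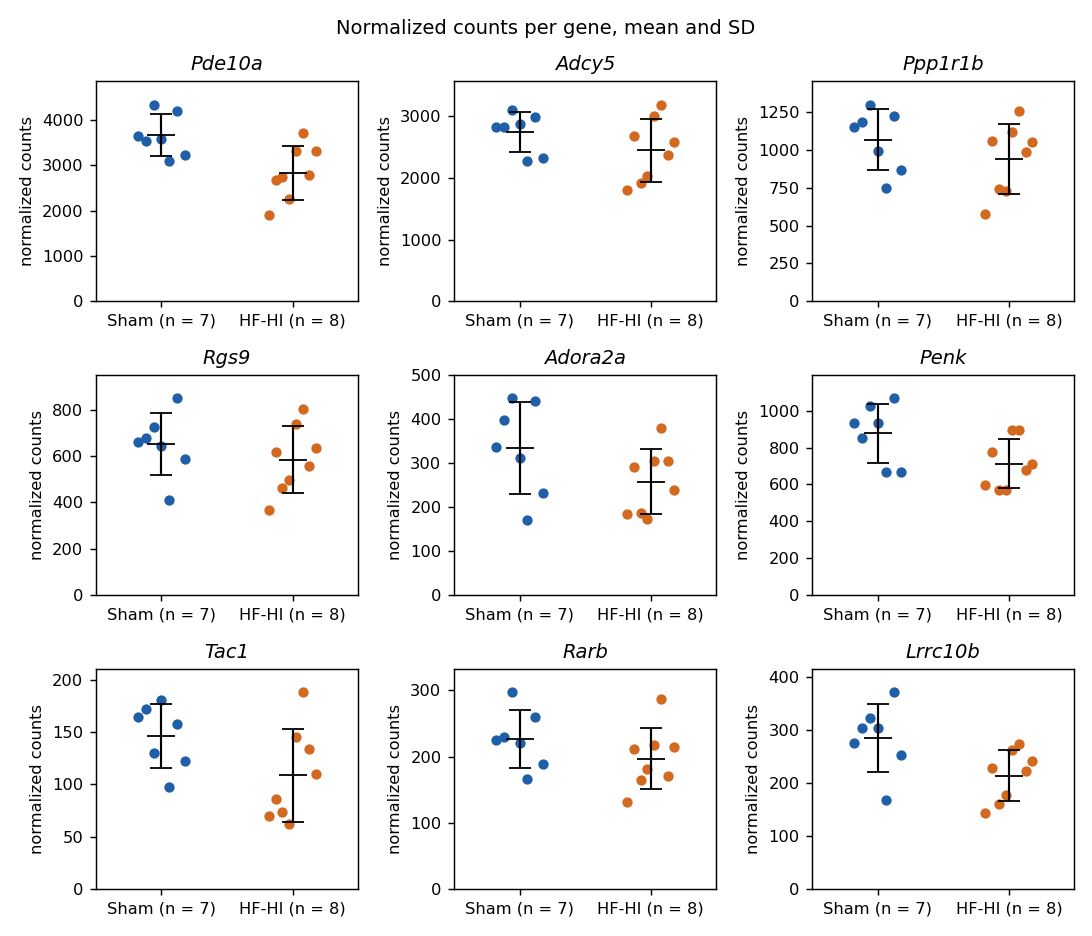
Normalized counts of each of the 9 genes (y axis, from 0) in the 7 Sham and 8 HF-HI libraries (x axis). Each point is a library, and the bar gives the group mean with SD. The HF-HI mean is lower in all 9 panels, and the groups overlap in each. In Pde10a 5 HF-HI libraries lie below every Sham library, and in Adora2a 0 do.

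Levels can be ordered between genes only per length. Summed over the listed transcripts, each divided by its annotated length, Ppp1r1b was highest at 646 ± 138 normalized counts per kb (SD over the 15 libraries). Penk followed at 544 ± 114, Pde10a at 467 ± 88.9 and Adcy5 at 368 ± 63.1. Among these 4, the ranges of mean ± SD of neighbours in the order overlapped. Rgs9 was lower at 237 ± 54.6, a range that met neither neighbour's. Lrrc10b (118 ± 31.0), Adora2a (113 ± 36.6) and Tac1 (103 ± 34.1) overlapped in mean ± SD, and Rarb came last at 67.8 ± 14.8, overlapping the SD of Tac1. These SDs are over libraries in which the genes vary together, so their overlap does not decide the order within a library.

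The next question was whether the 9 genes vary together from library to library. A mean member level was computed for each library as the mean over genes of log2(normalized counts + 1), each gene relative to its own mean over the 15 libraries. It was highest in Sham replicate 6 at 0.44 and lowest in HF-HI replicate 1 at −0.64, a 2.12-fold range. In order from the highest, the libraries were Sham 6, Sham 3, HF-HI 6, Sham 2, Sham 1, Sham 4, HF-HI 5, HF-HI 8, HF-HI 2, HF-HI 7, Sham 7, Sham 5, HF-HI 3, HF-HI 4 and HF-HI 1. In 7 libraries (Sham 1, 2, 3, 4 and 6, HF-HI 5 and 6) all 9 genes stood above their own 15-library mean. In 4 others (Sham 5, HF-HI 1, 3 and 4) 0 of 9 did. The remaining 4 libraries were mixed, with 3 or 6 of 9 genes above.

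**Figure D2:**
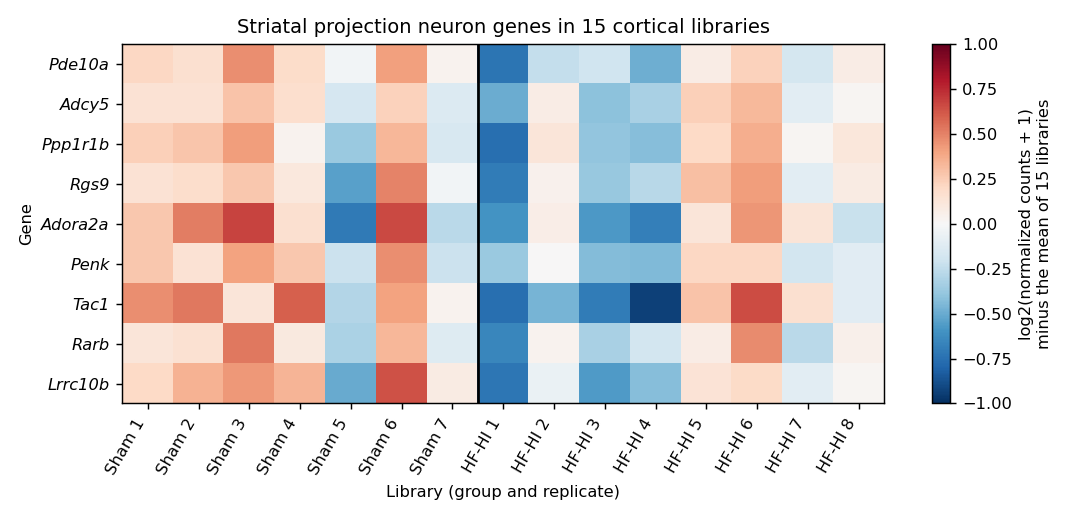
Heat map of the 9 genes (rows) in the 15 libraries (columns, by group and replicate). Color gives log2(normalized counts + 1) relative to the gene's mean over the 15 libraries. Columns are mostly of a single color: all 9 genes are above their mean in Sham 6 and HF-HI 6, and all 9 are below it in Sham 5 and HF-HI 1.

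All 36 pairs of genes were positively correlated over the 15 libraries. The Pearson r of a pair ran from 0.70 (Tac1 with Rarb) to 0.95 (Adcy5 with Ppp1r1b), with a median of 0.873. After subtraction of the group means all 36 stayed positive, with a median of 0.875 and a lowest value of 0.654, so the covariation lay within the groups and not only between them. Against the mean of the other 8, Adcy5 followed most closely (r = 0.960, rho = 0.921) and Tac1 least (r = 0.846, rho = 0.80), with a median of 0.932 over the genes. Without the 2 libraries farthest from the median, the r of Adcy5 was 0.950, that of Pde10a 0.831 and that of Tac1 0.818. These correlations are descriptions over 15 libraries, and the genes of a library share its RNA and its depth. Depth moved little with the mean member level, with r = 0.23 to the log2 size factor and −0.04 within groups.

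For scale, the same r to the mean member level was computed for the 7731 other named genes. Its median was −0.01, its 5th and 95th percentiles were −0.48 and 0.50, and its 99th percentile was 0.70. Only 34 of these genes (0.44%) had r of 0.8 or more, whereas all 9 members exceeded 0.8 to the mean of the others. Among the genes most like the members were Pde1b (r = 0.956), Gnal (0.949), Drd1 (0.931), Gng7 (0.922), Ankrd63 (0.917), Tbc1d8 (0.908), Scn4b (0.908), Dgkb (0.906) and Rasd2 (0.905). Of these 9, 6 are on a list of 37 further genes of striatal projection neurons, of which 25 were listed in these data. Gnal and Gng7 encode the alpha and gamma subunits of the G protein that couples the dopamine D1 and adenosine receptors of these cells to Adcy5. Drd1 is the D1 receptor that defines the direct pathway, with a Sham mean of 497 ± 77.8 and a HF-HI mean of 451 ± 102 normalized counts. Drd2 and Gpr6, which mark the indirect pathway, were not analysed here. The 5 genes of most negative r were 1700020I14Rik (−0.841), Slc8a1 (−0.820), Zbtb18 (−0.818), Khdrbs3 (−0.817) and Golga7b (−0.789).

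The mean level of the 25 other striatal genes followed that of the members closely, with r = 0.954 and rho = 0.954. It was 0.918 without the 2 libraries farthest from the median and 0.942 within groups. The range of the other genes was smaller, 1.47-fold from the highest to the lowest library against 2.12-fold for the members. Of the 25 genes, 24 had a positive r and 11 an r of 0.8 or more. The 5 of lowest r were Ptpn5 (−0.10), Meis2 (0.07), Kcnj2 (0.22), Prkcb (0.25) and Arpp19 (0.32), of which Ptpn5 and Prkcb are also abundant in cortical neurons.

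**Figure D3:**
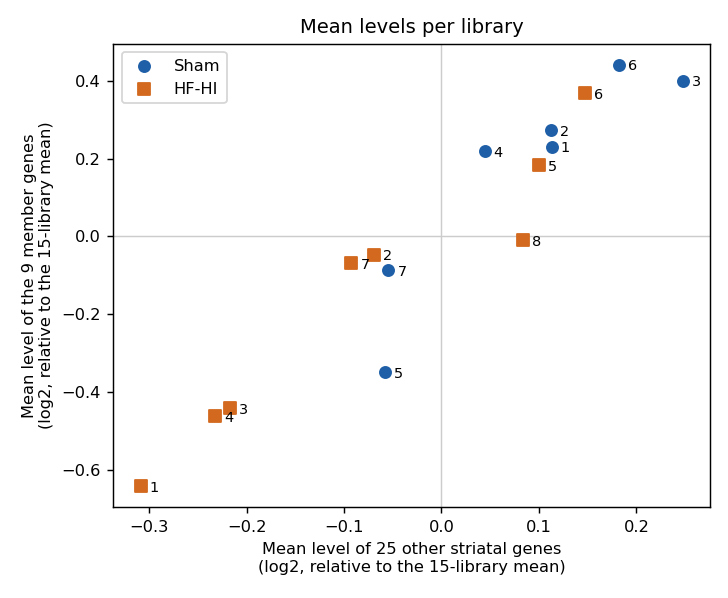
Mean level of the 9 genes (y axis) against the mean level of 25 other striatal genes (x axis) in each library, both in log2 relative to the 15-library mean. Blue and orange points are Sham and HF-HI libraries. The points follow a single line (r = 0.954), with HF-HI 1 at its lower end and Sham 3 and Sham 6 at its upper end, and Sham 5 among the HF-HI libraries on the y axis.

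Markers of other cells and regions were read beside the mean member level. Cortical projection neuron markers (11 of 12 listed) ran from −0.08 to 0.04 over Sham libraries and −0.11 to 0.09 over HF-HI libraries on the same log2 scale, with r = −0.504 to the members. The genes of the list were not alike: Neurod6 had r = −0.742, Cux2 −0.617, Slc17a7 −0.163 and Cux1 −0.013. Tle4 (0.396) and Neurod2 (0.045) were positive, and the other listed genes were negative. By group, 3 of its 11 genes (27.3%) were called between HF-HI and Sham in limma's voom fit of reads summed per gene, at an unadjusted p under 0.05, against 9.43% of all genes. Neurod2 (0.20) and Rorb (0.13) were higher in HF-HI and Tle4 (−0.10) lower, in log2, and none passed the adjusted threshold. Per transcript 3 of 18 (16.7%) were called, all higher. Over all transcripts 916 (8.83%) were called, of which 404 were lower and the rest higher. Interneuron markers (9 of 12 listed) ran from −0.11 to 0.05 and from −0.10 to 0.10, with r = 0.358. The genes of this list did not run one way. Gad2 (r = 0.762), Slc32a1 (0.699) and Gad1 (0.541), which mark GABAergic cells in general, were positive, as was Sst (0.220), while Vip (−0.433), Cck (−0.430) and Pvalb (−0.297) were negative. The members themselves ran from −0.64 to 0.44 on this scale, a wider range than that of either list.

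White matter markers (8 of 8 listed) ran from −0.11 to 0.13 over Sham and −0.13 to 0.16 over HF-HI libraries, with r = 0.395 to the members, and Mbp had r = 0.332. Hippocampal markers (3 of 7 listed, with Prox1 at r = −0.148) had r = 0.347 and thalamic markers (2 of 5 listed, Prkcd not among them) r = −0.430. Choroid plexus markers (2 of 8 listed) ran between −1.58 and 2.74 for Sham and between −1.91 and 3.02 for HF-HI, with r = 0.346. Ttr, the main product of that tissue, was at 6589 to 8663 normalized counts in Sham 1, Sham 2, HF-HI 2 and HF-HI 5, and at 21.0 to 176 in the other 11 libraries. The mean member level was mixed among the 4 libraries of high Ttr, at 0.23, 0.27, −0.05 and 0.18. The part of any of these tissues in the member values was not tested.

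The design then asks whether the 9 genes differed after HF-HI. The mean member level was 0.16 ± 0.28 in Sham (SD, n = 7) and −0.14 ± 0.35 in HF-HI (SD, n = 8), a difference of −0.30 on the log2 scale, with the Sham median above 7 of 8 HF-HI libraries and the lowest Sham library above 3. That difference is smaller than the pooled SD between libraries of a group, 0.318. Without Pde10a the difference was −0.29, and without Penk and Tac1 it was −0.27. The 25 other striatal genes differed by −0.16. Leaving out each library in turn gave differences of the mean member level from −0.39 to −0.23. No test was made of these means, because the genes were chosen with results of these data known. In bulk RNA, more or less striatal tissue in a cortical sample, fewer cells of a type and less RNA per cell cannot be told apart. The amount of striatal tissue in each sample was not measured, and its part in the difference was not tested.

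Single transcripts were tested on the deposited scale, variance-stabilized values (VSD), which resemble log2 counts but compress low ones. Of the 16 member transcripts 4 (25%) had an unadjusted p under 0.05 in limma, all lower in HF-HI. Over all 10370 transcripts the share was 8.83%, and 3.9% were called lower. After Benjamini-Hochberg adjustment in limma 0 of 16 passed 0.1, as did 0 of all transcripts. In all, 12 of 16 member transcripts had a lower mean in HF-HI, against 51.5% of all transcripts. The median VSD difference was −0.06 over the members and close to 0 over all transcripts.

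The lowest p belonged to ENSMUST00000089085 of Pde10a, with means of 2560.2 ± 358 (Sham) and 1821 ± 420 (HF-HI) normalized counts. Its VSD difference was −0.31 ± 0.08 (SE), with a limma adjusted p = 0.311 that ran from 0.231 to 0.858 over the alternatives. The other 3 were Lrrc10b (−0.10 ± 0.04, adjusted p = 0.504), ENSMUST00000078694 of Ppp1r1b (−0.20 ± 0.08, adjusted p = 0.504) and Penk (−0.13 ± 0.06, adjusted p = 0.533). Tac1 had −0.09 ± 0.04 (limma adjusted p = 0.579) and missed the unadjusted threshold. The 4 transcripts with a higher mean in HF-HI, none of them called, were ENSMUST00000115722 (0.00 ± 0.03) and ENSMUST00000115724 (0.07 ± 0.05) of Pde10a and ENSMUST00000132443 (0.00 ± 0.12) and ENSMUST00000137634 (0.11 ± 0.11) of Ppp1r1b. The 3 transcripts of Rgs9 lay at −0.08 ± 0.06, −0.01 ± 0.04 and −0.01 ± 0.04, Adora2a at −0.10 ± 0.06, Adcy5 at −0.11 ± 0.08 and Rarb at −0.05 ± 0.04. Which transcripts were called depended on single libraries. Without Sham replicate 5, the lowest Sham library, 7 of 16 were called, and without Sham replicate 6, the highest, 2 were.

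Reads summed per gene gave a similar picture on the log2 scale. In limma's voom fit all 9 genes were lower, against 52.0% of all genes, and 4 of 9 (44.4%) had an unadjusted p under 0.05. Over the 7740 genes 9.43% did, and 4.24% were called lower. No member passed the adjusted threshold of 0.1, which 1 of the 7740 genes (0.0129%) did. Pde10a differed by −0.37 (95% interval −0.61 to −0.12, voom adjusted p = 0.291, and 0.229 to 0.749 over its alternatives). Tac1 differed by −0.49 (−0.93 to −0.06, adjusted p = 0.465, alternatives 0.285 to 0.866), Lrrc10b by −0.39 (−0.76 to −0.03, adjusted p = 0.492, alternatives 0.177 to 0.821) and Penk by −0.29 (−0.55 to −0.02, adjusted p = 0.490, alternatives 0.330 to 0.865).

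The other 5 genes had intervals that held 0. Adora2a differed by −0.33 (−0.79 to 0.13), Rarb by −0.19 (−0.49 to 0.11), Ppp1r1b by −0.19 (−0.51 to 0.14), Adcy5 by −0.17 (−0.41 to 0.07) and Rgs9 by −0.15 (−0.49 to 0.19). These bounds hold lower values of 0.41 to 0.79 on the log2 scale as well as no difference. The count of 4 called genes fell to 1 without Sham 4, HF-HI 1, HF-HI 3 or HF-HI 4 and to 2 without Sham 1, 2, 3 or 6, and it was 5 without Sham 5 or HF-HI 6. Pde10a was called with each library left out, at −0.42 to −0.28.

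Because depth and the other striatal genes also differ between the groups, each gene was refitted with one of them as a covariate. Both covariates were planned for the transcript fit, and their use on reads summed per gene was chosen after the data had been seen. With the log2 size factor, all 9 genes were still lower and 2 of 9 were called, both lower, against 6.14% of all genes called and 2.66% called lower. These were Pde10a at −0.34 (−0.64 to −0.03) and Lrrc10b at −0.45 (−0.90 to −0.01). With the mean of the 25 other striatal genes as the covariate, the differences moved towards 0. Lower values were then seen in 5 of 9 genes, against 51.6% of all genes, and Adcy5 (0.06), Rarb (0.07), Ppp1r1b (0.12) and Rgs9 (0.15) had positive ones, none called. Pde10a alone was called, at −0.12 (−0.23 to −0.02, voom adjusted p = 0.527), against 8.53% of all genes called and 3.85% called lower. A single call among 9 genes is close to the 8.53% over all genes. The other striatal mean was itself lower in HF-HI by 0.16, so this fit asks only whether a member differed beyond the genes it varies with.

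**Figure D4:**
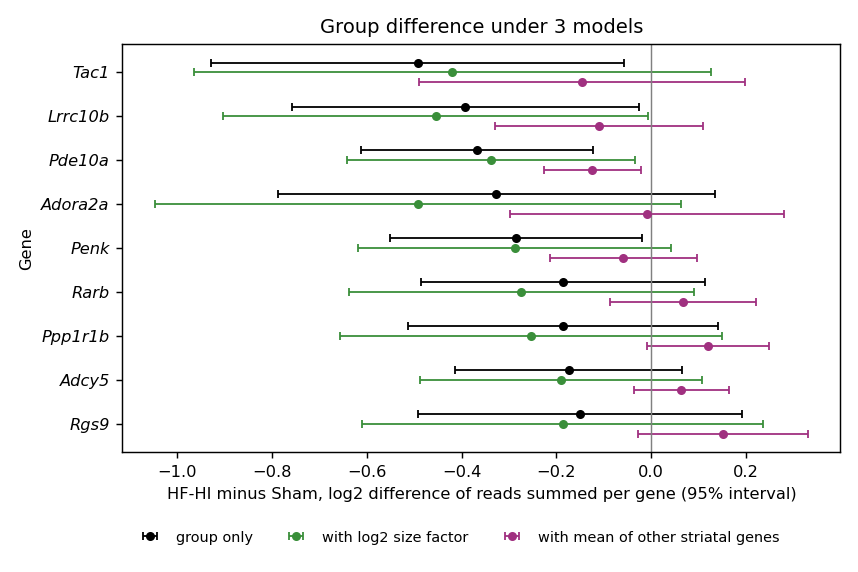
Difference HF-HI minus Sham (x axis, log2 of reads summed per gene) of each of the 9 genes (y axis) under 3 models: group only (black), with the log2 size factor (green) and with the mean of the other striatal genes (purple). Points are estimates and bars 95% intervals. With group only, all 9 points lie left of 0 and 4 intervals exclude it. With the other striatal genes, 4 points lie right of 0 and only the interval of Pde10a, which runs from −0.23 to −0.02, excludes it.

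Among the 25 other striatal genes, 5 (20.0%) had an unadjusted p under 0.05 in the voom fit, all lower, against 9.43% of all genes called and 4.24% called lower. The fitted difference was lower in 22 of 25, against 52.0% of all genes. None passed the adjusted threshold in voom, the lowest adjusted p being 0.384. These 5 were Cnr1, the cannabinoid receptor CB1 (−0.20 ± 0.07, SE), Arpp21 (−0.09 ± 0.03), Ptpn5 (−0.18 ± 0.07), Spock3 (−0.17 ± 0.07) and Actn2 (−0.39 ± 0.18). The 5 that followed the members most closely were not called, and Pde1b differed by −0.15 ± 0.11, Gnal by −0.11 ± 0.07, Drd1 by −0.14 ± 0.14, Gng7 by −0.15 ± 0.13 and Scn4b by −0.10 ± 0.12. Ptpn5, by contrast, was called lower with an r of −0.10 to the members. Per transcript, 3 of 51 (5.88%) were called, all lower, against 8.83% of all transcripts called and 3.9% called lower.

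Pde10a could be resolved further, because its 4 transcripts begin at distinct places. ENSMUST00000089085 (protein coding, 22 exons) and ENSMUST00000115717 (annotated as a target of nonsense-mediated decay) start at 8801693 and 8801779, within the promoter printed above. ENSMUST00000115722 (retained intron) and ENSMUST00000115724 (protein coding, 23 exons) start far upstream, at 8525450 and 8526801, the former 276.2 kb before 8801693. The downstream pair was at 3335 ± 447 normalized counts (Sham, lowest 2766, median 3281, highest 3962) and 2476 ± 559 in HF-HI (lowest 1572, median 2421, highest 3269). Its Sham median lay above all 8 HF-HI libraries, as held for 3.06% of all genes. The upstream pair was at 327 ± 58.2 in Sham (lowest 249.9, median 322, highest 417) and 364 ± 71.6 in HF-HI (lowest 255, median 384, highest 442), with the Sham median above 2 of 8 HF-HI libraries.

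The log2 ratio was −0.43 for the downstream pair and 0.15 for the upstream pair. The upstream means differed by less than the SD of either group, and neither upstream transcript was called in limma on VSD, so no rise is claimed. The pairs also differed in covariation. The downstream pair followed the mean of the other 8 genes with r = 0.887 and rho = 0.904 (0.828 without the 2 farthest libraries, 0.886 within groups), and the upstream pair with r = 0.136 and rho = 0.061 (0.199 and 0.289). The split by start was made after the values were seen, so no test is given. Reads of the upstream coding transcript are not independent of the downstream ones, since 87.6% of its bases are shared with ENSMUST00000089085, and the split of shared reads is the authors' estimate. The retained intron transcript shares only 4.3% of its bases.

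**Figure D5:**
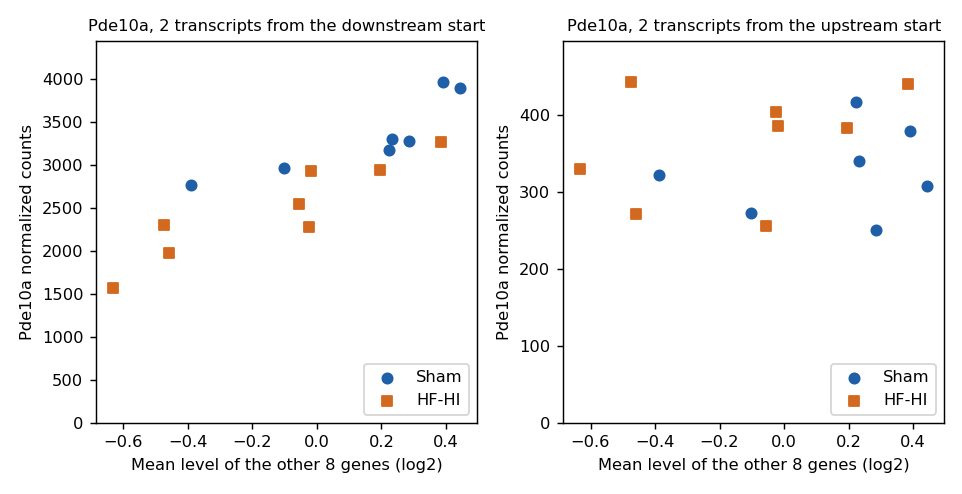
Summed normalized counts of the Pde10a transcripts (y axes, from 0) against the mean log2 level of the other 8 genes (x axes), for the 2 transcripts of the downstream start (left) and the 2 of the upstream start (right). Points are libraries, blue for Sham and orange for HF-HI. The downstream sum climbs with the other genes (r = 0.887) and the upstream sum does not (r = 0.136).

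Within the downstream pair, the transcripts are told apart by 139 bases. Of these, 50 are the exon 5 printed above, which is coding, present in ENSMUST00000089085 and absent from ENSMUST00000115717. Its length is not a multiple of 3, so leaving it out shifts the reading frame. The others lie at the ends, mostly the 5′ end. The share of Pde10a counts given to ENSMUST00000115717 ran from 0.34% in Sham 5 to 35.2% in Sham 3. Its group means were 20.5% ± 11.2 in Sham and 22.6% ± 6.33 in HF-HI. A spread this wide within Sham makes the sum of the pair the steadier measure, and the VSD difference of ENSMUST00000115717 alone was −0.02 ± 0.18 (SE).

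Ppp1r1b behaved alike. Its 3 transcripts share most of their bases, with 97.5% of ENSMUST00000132443 found in ENSMUST00000078694, and they traded counts from library to library. Their pairwise r values were −0.61, −0.31 and 0.09, and yet their sum had r = 0.954 to the other members. ENSMUST00000078694 took 53.9% ± 7.21 of the gene's counts in Sham and 42.0% ± 11.8 in HF-HI, ENSMUST00000137634 took 26.3% ± 16.4 and 36.7% ± 15.7, and ENSMUST00000132443 took 19.8% ± 12.5 and 21.2% ± 9.26. The call on ENSMUST00000078694 is thus a call on 1 isoform, while the gene sum was not called (voom adjusted p = 0.765). The 3 transcripts of Rgs9 had positive r values between them, of 0.24 to 0.46.

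The members' promoters were read for short motifs on both strands. RefSeq entries were found for 6 member genes and gave 7 promoters, those of Adcy5, Lrrc10b, Pde10a (at its downstream start and at a further one), Rarb, Rgs9 and Tac1. Those of Adora2a, Penk and Ppp1r1b were not searched. The first 6 letters of the cyclic AMP response element, TGACGT, were in 0 of 7, and in 7.51% of 32851 promoters of the same length. The shorter TGACG, which TGACGT contains, was in 1, Tac1, at −197 and −43 from the start (20.8% of all). CCAAT was in 4 of 7 (37.4% of all), those of Tac1, Rgs9, Lrrc10b and the further start of Pde10a. TATAAA was in 1, Rgs9 (13.6%), and the retinoid receptor motif AGGTCA in 0 (16.3%). In Rarb, the retinoic acid response element (GGTTCA, any 5 bases, then AGTTCA) printed in capitals lies at −53, and only 2 of all promoters hold those letters. That motif was searched after the sequence had been seen. Such matches describe the letters in these windows and say nothing of binding in these samples.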

How the data were processed

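Cortical total RNA was sequenced from 7 Sham and 8 HF-HI mouse samples. Per the study's methods, the authors made stranded, ribosome-depleted libraries, aligned reads with STAR to mm10, and estimated counts per Ensembl transcript with eXpress. The annotation release and the strand setting of counting are not given in the sources used here. The submitters' processing notes name STAR, DESeq2 and mm10. The authors deposited DESeq2 variance-stabilized values (VSD) on a log2 scale for 10370 transcripts. A doubling from 100 normalized counts moves VSD by 0.195 and one from 1000 by 0.531.

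The transformation was inverted here from the shared value of 0 reads (9.81). All values (100.0%) came out whole within 0.1 reads, and these reads and their size factors gave the normalized counts and depth. A read was worth 0.679 to 2.00 normalized counts. The lowest mean in the table was 107.9 normalized counts, so rarer transcripts were not analysed here. Transcripts were matched to GENCODE M21 of GRCm38 (10241 matched, 129 did not).

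Each transcript was tested in limma 3.58.1 (R 4.3.3) on VSD, with group only and eBayes with trend, two-sided, adjusted over all transcripts by Benjamini-Hochberg at 0.1. Calls at an unadjusted p under 0.05 were also counted. Reads summed per gene were tested with limma's voom. No count model was fitted. Covariation was described over 15 libraries, with a pseudocount of 1. The code was tested on simulated counts. Alternatives changed the prior, scaling, filter, pseudocount, weights, block, covariates and libraries. The members and lists were chosen with earlier results of these data known. Named genes were all members, the called and the 5 most and 5 least like of the other striatal genes, the 10 most and 5 least like of all genes, and fixed markers, of which some are not reported here. Motifs and the split of Pde10a by start are as stated beside them.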

Additional observations from a re-analysis of the deposited data

How the results depend on the processing

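The count of member transcripts called (4) was 2 with the log2 size factor, 2 with voom per transcript, 1 with the other striatal mean, and 2 to 7 with each library left out. For all transcripts the count (916) was 533 with the log2 size factor and 748 to 987 with libraries left out. For the other striatal transcripts the count (3) was 1 with a filter at 200 normalized counts, 5 with voom per gene and 2 to 6 with libraries left out. Summed per gene, the 4 called members were 2 with the log2 size factor, 1 with the other striatal mean and 1 to 5 with libraries left out.

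The replicate numbers did not pair the samples: the correlations of same-numbered deviations ran from −0.14 to 0.09 and 1 of 7 had its best partner in its own number. With a replicate block 3 of 16 member transcripts were called, 2 of 9 member genes, 8 other striatal transcripts and 891 of all, and 5 of 7 same-numbered pairs were lower in HF-HI in the mean member level, by a mean difference of −0.32.

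With the other striatal mean as covariate the VSD difference turned positive for Adcy5 (0.048), Adora2a (0.010), Rarb (0.021), Rgs9 ENSMUST00000020920 (0.017), ENSMUST00000106704 (0.045) and ENSMUST00000106706 (0.068), and Pde10a ENSMUST00000115717 (0.21). Per gene it turned positive for Adcy5 (0.063), Rarb (0.067), Ppp1r1b (0.12) and Rgs9 (0.15). Transcripts of differences near 0 turned in other fits too. Pde10a ENSMUST00000115717 was at 0.39 and 0.28 on log2 counts with a pseudocount of 1 and 10 and at 0.60 with voom, and ran from −0.20 to 0.072 with libraries left out. Rgs9 ENSMUST00000106706 was at 0.0038 with quantile normalization, 4.1e-04 with voom and −0.026 to 0.013 with libraries left out, and ENSMUST00000106704 ran from −0.023 to 0.018. Pde10a ENSMUST00000115722 was at −3.9e-04 with the replicate block and −0.0097 to 0.023 with libraries left out. Ppp1r1b ENSMUST00000132443 was at −0.025 with the block, −0.014 with the log2 size factor and −0.080 to 0.059 with libraries left out. For the Pde10a and Ppp1r1b transcripts the cause was not tested.

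The mean member level stayed lower in HF-HI in every alternative run (−0.45 to −0.23, the former on standardized VSD), and the median correlation of a member with the others stayed between 0.915 and 0.949. Pde10a ENSMUST00000089085 kept its direction and its call throughout. Low counts limit Tac1 and the minor isoforms most.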
